A study of Mus musculus with 38 samples.

Results

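The genes described here are 10 markers of leukocytes and, above all, of macrophages: Ptprc, Adgre1, Csf1r, Cd68, Lyz2, Cd14, Mrc1, Trem2, Gpnmb and Fcgr1. The rule that chose them is a list of symbols, set with earlier results of these data known. Each symbol matched 1 row, and together they are 10 of the 55487 genes counted in 38 bulk RNA-Seq libraries from 3 experiments. RNA of mice came from 1 piece of the intermediate part of the kidney (pars intermedia) per animal, so that levels are those of this piece and not of the entire organ. The anti-GBM experiment used male C57BL/6JRj mice, 8 weeks old at disease start, that had received nephrotoxic serum against the glomerular basement membrane (anti-GBM disease) or not (healthy), followed by 6 daily injections of 1 µg recombinant human FGF23 or of vehicle. This gave 4 healthy mice on vehicle, 3 healthy mice on FGF23, 4 anti-GBM mice on vehicle and 3 anti-GBM mice on FGF23. In the Adriamycin experiment, 4 female BALB/c mice per group, also 8 weeks old at disease start, were healthy or had Adriamycin nephropathy, and their kidneys were taken 24 h after FGF23 (1 injection of 1 µg) or vehicle. In the third experiment, precision-cut kidney slices (PCKS) from male DBA/2J mice with adenine nephropathy, also 8 weeks old at the start of the diet, were cultured with vehicle or with FGF23 at 200 ng per mL, with 4 cultures each. The sample labels give 1 h for this treatment, whereas the text of the study gives 24 h, and no slices from disease-free mice were part of it. Slices are grouped here by their sample labels and the letters of their count columns, which the treatment line of the study's own table follows, whereas a second grouping line of that table splits the 8 slices differently. Anti-GBM mice had been immunized with sheep IgG in adjuvant before the serum and control mice had received vehicle instead, so that disease and immunization cannot be told apart. FGF23 is a bone hormone that normally makes the kidney excrete phosphate, and the study asked whether its excess draws leukocytes into the diseased kidney. Mice are named here by their library (such as NTS5 or Ad8), because the count columns name a mouse but no replicate number.

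Macrophages are phagocytes that live in the kidney from birth or arise from blood monocytes that enter injured tissue. Ptprc encodes CD45, a phosphatase on nearly every leukocyte, and therefore stands for leukocytes as a whole. Csf1r is the receptor for the growth factor that keeps macrophages alive, and Adgre1 encodes F4/80, the surface protein by which mouse kidney macrophages are usually stained. Cd68 is a lysosomal membrane protein and Lyz2 a bacteria-degrading lysozyme of myeloid cells, including neutrophils. Sensing and uptake are represented by Cd14 (a co-receptor for lipopolysaccharide), Mrc1 (the mannose receptor), Fcgr1 (the high-affinity receptor for IgG) and Trem2 (a lipid receptor), while Gpnmb is a glycoprotein of macrophages loaded with lipid or debris. Several of these are not confined to leukocytes: in particular, Cd14 can be made by injured tubular cells and Gpnmb by other cells rich in lysosomes. In bulk tissue, fewer cells of a type and less RNA per cell cannot be told apart.

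To place the genes in the genome, sequence upstream of the transcription start was taken from RefSeq (GRCm38.p6) for 4 of the 7 members with an entry, namely those called in the most comparisons and, among ties, with the smallest p in anti-GBM disease under vehicle. They are shown because these 4 genes rose in anti-GBM disease from very different levels. Each is the 250 bases before the start, 5′ to 3′ on the coding strand. Capitals mark exact matches, on either strand, to GAGGAA (the core bound by PU.1, a factor that macrophages need) or to TTCNNNGAA (the STAT element, read the same on both strands).
Cd68, chr11:69666171-69666420, minus strand: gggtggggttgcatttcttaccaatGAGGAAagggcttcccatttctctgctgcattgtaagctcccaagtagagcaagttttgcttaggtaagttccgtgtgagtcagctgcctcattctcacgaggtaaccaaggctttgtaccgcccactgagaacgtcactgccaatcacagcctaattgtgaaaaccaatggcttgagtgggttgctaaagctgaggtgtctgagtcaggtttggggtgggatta
Fcgr1, chr3:96293970-96294219, minus strand: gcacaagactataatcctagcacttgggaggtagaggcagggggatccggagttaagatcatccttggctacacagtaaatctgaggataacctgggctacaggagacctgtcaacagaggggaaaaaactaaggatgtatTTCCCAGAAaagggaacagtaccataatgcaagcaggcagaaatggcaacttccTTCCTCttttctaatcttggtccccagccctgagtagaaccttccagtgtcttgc
Trem2, chr17:48346151-48346400, plus strand: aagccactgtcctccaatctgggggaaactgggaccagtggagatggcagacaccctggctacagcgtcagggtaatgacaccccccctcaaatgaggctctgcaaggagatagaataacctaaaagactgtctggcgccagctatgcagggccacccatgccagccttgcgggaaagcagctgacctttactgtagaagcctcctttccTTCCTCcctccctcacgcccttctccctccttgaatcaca
Gpnmb, chr6:49036268-49036517, plus strand: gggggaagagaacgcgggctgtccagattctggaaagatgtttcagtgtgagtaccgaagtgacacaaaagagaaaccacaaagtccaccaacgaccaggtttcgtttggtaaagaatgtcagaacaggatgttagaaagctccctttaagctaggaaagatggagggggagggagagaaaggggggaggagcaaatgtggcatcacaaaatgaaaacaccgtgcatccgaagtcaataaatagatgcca
The PU.1 core stood 225 bases before the start of Cd68 and, on the opposite strand, 55 bases before that of Fcgr1 and 40 before that of Trem2, whereas the Gpnmb window held none of the motifs. Over the 7 members with a window (Ptprc, Cd68, Lyz2, Mrc1, Trem2, Gpnmb and Fcgr1), 5 held the PU.1 core, as did 23.3% of all 32851 windows of the same length. The STAT element was present upstream of Fcgr1 alone among the 7 (7.02% of all windows), and TATAAA upstream of Ptprc alone (12.4% of all windows). These are matches of letters, not binding sites.

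Libraries held between 13704248 and 23630210 counts (anti-GBM experiment), between 15665050 and 27583911 (Adriamycin experiment) and between 11186925 and 16254987 (PCKS). Levels are given as CPM, counts scaled to a common library size with TMM factors computed within each experiment, so that levels of different experiments can only be set side by side. In the anti-GBM experiment and in PCKS, all 10 members passed the filter on low counts. In the anti-GBM experiment, Trem2 had at most 8 counts in any healthy library and passed only through the diseased libraries, where it was high. Gpnmb was near the limit there, with 3 to 19 counts in healthy libraries on vehicle and 9 to 14 in those on FGF23. In the Adriamycin experiment, Trem2 (0 to 22 counts per library) and Gpnmb (0 to 13 counts) did not pass, leaving 8 tested members. Among the 4 anti-GBM mice on vehicle, mouse NTS8 was lowest for 6 of the 10 members, and mouse NTS7 differed most from the others over all genes (chi-square per degree of freedom of at least 39.4 against each). Among the FGF23-treated slices, slice 1 differed most from the others (at least 22.1, against 2.02 between slices 2 and 4) and was lowest for 8 of the 10 members. Some member results that rest on these libraries are also given without 1 of them, whereas ratios to Ptprc and marker lists are given with all libraries only.

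In healthy C57BL/6 kidneys on vehicle, the markers spanned a wide range of abundance. Per kilobase of annotated exon, Lyz2 (15.3 CPM per kb, mean of 4 mice) and Csf1r (10.7) were the most abundant members, followed by Cd68 (3.27), Adgre1 (2.39) and Cd14 (2.2). Mrc1 (0.948), Ptprc (0.781) and Fcgr1 (0.574) were lower, and Gpnmb (0.0741) and Trem2 (0.0261) were close to the limit of detection. Of the exon sequence of Csf1r, 873 of 5774 bases overlap Hmgxb3 on the opposite strand; the library kit was stranded, but the strand setting of the counting is not given in the sources used here. The exon length of Ptprc (18313 bases, all annotated isoforms joined) exceeds that of any other member, which lowers its value per kilobase.

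Anti-GBM disease raised 9 of the 10 markers in vehicle-treated mice, and Csf1r alone did not pass the test. The increases ranged from 1.66-fold for Ptprc to 15.9-fold for Trem2, with a median log2 fold change of 2.19 over the 10 members, beside -0.01 over all 15859 genes tested. All 9 calls were upward, whereas 19.4% of all genes tested were called higher (edgeR's quasi-likelihood test, Benjamini-Hochberg adjusted p below 0.05). Trem2 is among the 9 although it passed the filter only through the diseased libraries, so that its call adds little to the count. For 8 members the lowest anti-GBM mouse lay above the highest healthy mouse, which was so for 17% of all genes.

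**Figure D1:**
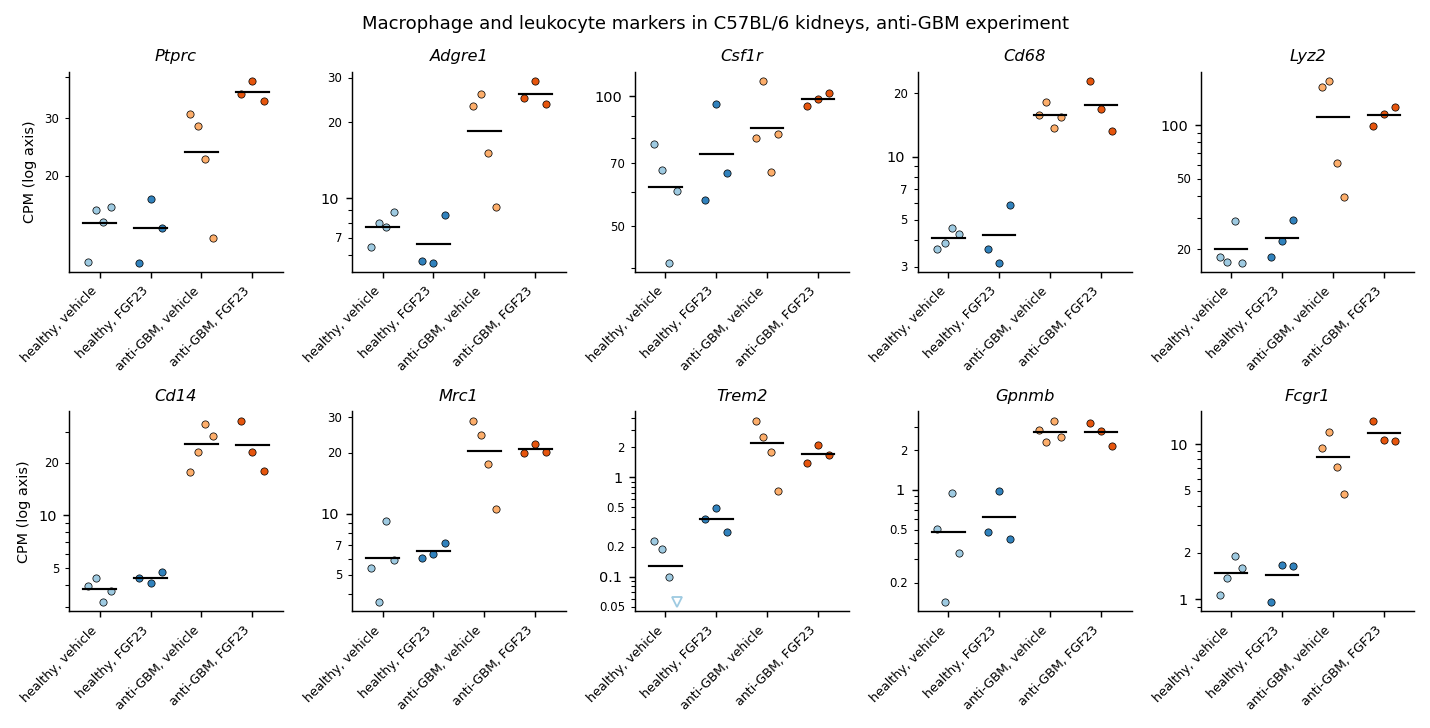
Levels of the 10 members in each mouse of the anti-GBM experiment (CPM, log axis, a separate scale per gene). Points are mice, lines are group means, and the open triangle marks a library with 0 counts. For all members except Ptprc and Csf1r, the 4 anti-GBM mice on vehicle lie above the 4 healthy mice on vehicle.

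The pan-leukocyte marker had the lowest fold change among the called members. Ptprc was at 10.9, 15.8, 14.4 and 16.1 CPM in the healthy mice on vehicle and at 30.8, 28.4, 22.6 and 12.9 CPM in anti-GBM mice NTS5, NTS6, NTS7 and NTS8. Mouse NTS8 fell within the healthy range and the other 3 lay above it. The log2 fold change was 0.73 ± 0.22 (SE, adjusted p = 0.0167). Ptprc stayed called in all 14 edgeR fits with 1 mouse left out, but its adjusted p came close to the cutoff. It ranged from 0.000541 (without NTS8) to 0.0497 (without NTS6). Among the receptors that define macrophages, Adgre1 was at 6.45, 7.98, 7.69 and 8.81 CPM in health and at 23.3, 26, 15.1 and 9.29 CPM in disease, again lowest in NTS8 but without overlap (1.26 ± 0.26, adjusted p = 0.00174). Csf1r was at 77.7, 67.6, 41.2 and 60.2 CPM in health and 79.9, 108, 66.7 and 81.9 CPM in disease, and the groups overlapped. Its log2 fold change of 0.45 ± 0.19 had an adjusted p of 0.0805 and a 95% interval of 0.03 to 0.87, so that a rise of the size seen for Adgre1 lay outside it. The call for Csf1r was close to the cutoff: its adjusted p fell to 0.0302 without healthy mouse NTS1, to 0.0459 without NTS7, to 0.0409 without NTS11 and to 0.0348 without the count filter, and it ranged from 0.0302 to 0.241 over the mice left out in turn.

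The lysosomal markers and Gpnmb also rose. Cd68 was at 3.62, 3.90, 4.59 and 4.31 CPM in the healthy kidneys and at 15.8, 18.1, 13.7 and 15.5 CPM in the diseased ones, without overlap (3.83-fold, log2 fold change 1.94 ± 0.20, adjusted p = 1.33e-05). Lyz2, in contrast, varied widely among the diseased kidneys, with 18.1, 17.1, 28.7 and 16.8 CPM in health and 164, 177, 61.3 and 39.2 CPM in disease. The highest and the lowest diseased mouse, NTS6 and NTS8, thus differed more from each other than NTS8 did from the healthy mice, although all 4 lay above the healthy range (2.45 ± 0.40, adjusted p = 0.000364). Gpnmb rose from 0.509, 0.143, 0.948 and 0.331 CPM to 2.81, 2.32, 3.34 and 2.52 CPM, resting on 3 to 19 counts per healthy library and 35 to 65 per diseased library (2.49 ± 0.39, adjusted p = 0.000319).

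The receptors for sensing and uptake all rose, and Trem2 had the highest fold change of the members. Cd14 was at 3.96, 4.37, 3.19 and 3.71 CPM in healthy kidneys and at 17.6, 23, 33.3 and 28.3 CPM in anti-GBM kidneys. It had the smallest p of the 10 members (6.69-fold, log2 fold change 2.74 ± 0.23, adjusted p = 2.55e-06), and its highest diseased values were those of NTS7 and NTS8, although NTS8 was lowest for 6 members. Fcgr1 rose 5.57-fold, from 1.08, 1.38, 1.90 and 1.59 CPM to 9.46, 11.9, 7.09 and 4.75 CPM (2.48 ± 0.28, adjusted p = 2.73e-05). Mrc1 rose 3.38-fold, from 5.38, 3.66, 9.24 and 5.90 CPM to 28.9, 24.5, 17.6 and 10.6 CPM (1.76 ± 0.29, adjusted p = 0.000371). The order of the diseased mice was the same for Mrc1 and Trem2, highest in NTS5 and lowest in NTS8. Trem2 was nearly absent from healthy kidneys, with 4, 4, 2 and 0 counts in the 4 libraries, and reached 73, 40, 35 and 10 counts in the diseased ones. The ratio of the summed levels was 17 (95% counting interval 9.03 to 36.2, counting error only), and the fitted log2 fold change was 3.99 ± 0.56 (adjusted p = 0.000131).

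Under FGF23, the disease comparison gave the same 9 calls. Of the 10 members, 9 were called higher in anti-GBM mice on FGF23 than in healthy mice on FGF23, beside 14.5% of all genes, and 9 did not overlap, beside 22.5% of all genes. Log2 fold changes were 1.38 ± 0.25 for Ptprc, 1.96 ± 0.30 for Adgre1 and 3.05 ± 0.33 for Fcgr1, numerically above those under vehicle. They were 2.04 ± 0.23 for Cd68, 2.51 ± 0.26 for Cd14, 1.67 ± 0.33 for Mrc1, 2.30 ± 0.45 for Lyz2 and 2.16 ± 0.44 for Gpnmb. For Trem2 the value was 2.18 ± 0.55, numerically below that under vehicle, and the 3 healthy mice on FGF23 had 6, 8 and 7 counts. Whether these effects differed from those under vehicle is the interaction tested further on. Adjusted p-values of the 9 ranged from 2.00e-05 (Cd14) to 0.0102 (Trem2). Csf1r again did not pass (0.43 ± 0.22, adjusted p = 0.175), although it reached 0.0478 when healthy mouse NTS11 was left out.

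Next, each member was set against Ptprc in the same library, which shows whether it moved more or less than the pan-leukocyte transcript. RNA from cells other than leukocytes can enter this ratio, so that it does not give the make-up of the leukocytes. In anti-GBM disease under vehicle, 8 of the 9 other members had a higher ratio to Ptprc without overlap between diseased and healthy mice, beside 2.4% of all genes tested. The log2 ratio of Cd68 to Ptprc was -1.79 ± 0.20 (SD, n = 4) in health and -0.52 ± 0.54 (n = 4) in disease. For Cd14 it moved from -1.90 ± 0.32 to 0.15 ± 0.87, and for Fcgr1 from -3.28 ± 0.25 to -1.52 ± 0.21. Adgre1 moved less, from -0.88 ± 0.09 to -0.40 ± 0.19. Csf1r went the other way, from 2.09 ± 0.55 to 1.88 ± 0.57, a difference smaller than the SD of either group. Under FGF23, the ratio of Csf1r to Ptprc was 2.26, 2.40 and 2.50 in the 3 healthy mice and 1.42, 1.34 and 1.59 in the 3 anti-GBM mice, lower in each diseased mouse than in any healthy one, as for 84.6% of all genes, and Ptprc itself was higher in disease. In the same comparison, 7 of the 9 members (Adgre1, Lyz2, Cd14, Mrc1, Trem2, Gpnmb and Fcgr1) had a higher ratio without overlap, beside 1.76% of all genes, and Cd68 overlapped, as Trem2 did once a prior count of 2 was added. These ratios carry no test.

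**Figure D2:**
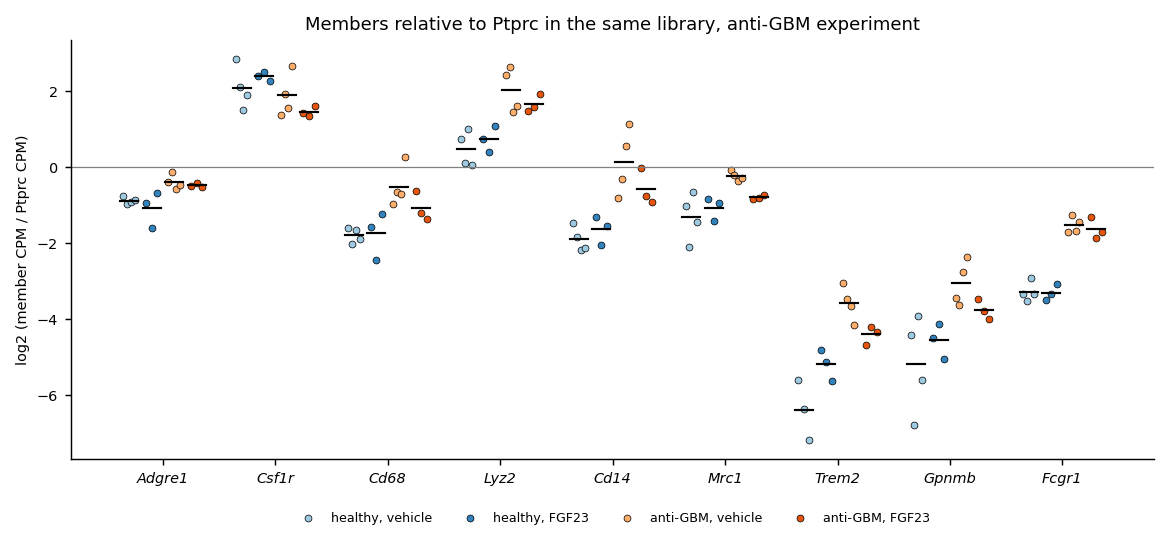
Log2 ratio of each member to Ptprc in the same library, anti-GBM experiment. Points are mice and lines are group means; 1 healthy library without Trem2 counts is left out. Cd68, Cd14, Trem2 and Fcgr1 lie higher in the 4 anti-GBM mice on vehicle than in the 4 healthy mice on vehicle, whereas Csf1r overlaps.

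The question of the study, whether FGF23 adds to the leukocyte content of the anti-GBM kidney, was then addressed by comparing FGF23 with vehicle within disease. None of the 10 members was called, by edgeR or by DESeq2, whereas 0.24% of all genes were (38 of 15859), and 1 member had an unadjusted p below 0.05, as did 12.6% of all genes. Ptprc was that member: the 3 mice on FGF23 were at 35.4, 38.9 and 33.8 CPM, all above the highest of the 4 vehicle mice (12.9 to 30.8 CPM). No other member separated the groups in this way, which 5.11% of all genes did upward and 4.1% downward. The log2 fold change of Ptprc was 0.60 ± 0.23 (95% interval 0.11 to 1.09, adjusted p = 0.344 by edgeR). Leaving out the low vehicle mouse NTS8 reduced it to 0.41 (adjusted p = 0.492), and leaving out the high vehicle mouse NTS5 raised it to 0.76. These were the lowest and highest values over the mice left out in turn, with edgeR adjusted p-values from 0.221 (without NTS7) to 0.777 (without NTS13).

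Adgre1 and Fcgr1 showed a similar size with less certainty. Adgre1 was at 24.9, 29.1 and 23.6 CPM in the mice on FGF23, which overlapped the highest vehicle mouse, NTS6 (0.49 ± 0.26, 95% interval -0.07 to 1.05, adjusted p = 0.439). Fcgr1 was at 14.2, 10.7 and 10.4 CPM (0.50 ± 0.26, 95% interval -0.06 to 1.06, adjusted p = 0.434). Without NTS8, the log2 fold changes of Adgre1 and Fcgr1 were 0.28 and 0.32, and without NTS6 they were 0.69 and 0.72. Trem2 had the lowest log2 fold change of the members, -0.37 ± 0.44 (95% interval -1.30 to 0.56, adjusted p = 0.734), with 29, 42 and 34 counts in the 3 mice on FGF23. Its sign turned when the highest vehicle mouse NTS5 was left out (0.02).

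The other 6 members lay between -0.02 and 0.23. Csf1r was at 94.9, 98.5 and 102 CPM in the mice on FGF23 (95% interval of the log2 fold change -0.22 to 0.67), Cd68 at 22.8, 16.9 and 13.2 CPM (-0.26 to 0.59) and Cd14 at 34.8, 22.9 and 17.9 CPM (-0.48 to 0.45). Lyz2 was at 99.3, 116 and 127 CPM (-0.80 to 0.90), Mrc1 at 19.9, 22.2 and 20.3 CPM (-0.59 to 0.64) and Gpnmb at 3.22, 2.80 and 2.13 CPM (-0.79 to 0.75). Each interval included 0, and the 2 groups overlapped for all 6 genes. With 1 mouse left out in turn, Lyz2 ranged from -0.23 (without NTS8) to 0.37 (without NTS6). Mrc1 ranged from -0.18 (without NTS8) to 0.25 (without NTS5). The 3 mice on FGF23 lay close together for Lyz2 (114 ± 14 CPM, mean ± SD, n = 3), while the vehicle mice were spread widely (110.4 ± 70.2 CPM, n = 4).

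Relative to Ptprc, all 9 other members had a lower mean ratio in anti-GBM mice on FGF23 than in those on vehicle. Ptprc itself separated these groups upward, and every ratio includes that difference. The groups did not overlap for 2 of the 9 members, beside 44.4% of all genes whose ratio was lower in this way, so that the count is no result about the members. These were Mrc1, with log2 ratios of -0.83, -0.81 and -0.73 under FGF23 and -0.09, -0.22, -0.36 and -0.28 under vehicle, and Trem2, with -4.67, -4.21 and -4.33 and -3.04, -3.47, -3.65 and -4.16. Since all 9 ratios share the Ptprc value of the same library, they are not 9 separate observations. Adgre1 and Fcgr1 kept nearly the same ratio to Ptprc, with differences of -0.09 and -0.11, both smaller than the SD of the vehicle group. This was also so for Csf1r (-0.43, SD 0.57), Lyz2 (-0.37, SD 0.59) and Cd14 (-0.71, SD 0.87), whose vehicle mice were spread more widely.

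In healthy C57BL/6 mice, FGF23 changed no member by the test (0 of 10 called by edgeR or by DESeq2, 0 with an unadjusted p below 0.05, beside 0% of all genes called and 4.34% with such a p). The highest value was that of Trem2, whose groups did not overlap (2.3% of all genes upward), at 1.44 ± 0.71 (adjusted p = 0.996), from 6, 8 and 7 counts under FGF23 against 4, 4, 2 and 0 under vehicle. Ptprc was at 13.9, 10.9 and 16.9 CPM in the healthy mice on FGF23 (-0.56 to 0.47 for the log2 fold change) and Adgre1 at 8.64, 5.67 and 5.57 CPM (-0.83 to 0.40). Whether FGF23 acted differently in disease and in health was tested as an interaction, in which edgeR and DESeq2 called 0 of 10 members (edgeR called 0.0315% of all genes) and 1 member, Trem2, had an unadjusted p below 0.05 (8.3% of all genes). The interaction was 0.65 ± 0.33 for Ptprc (adjusted p = 0.635), 0.70 ± 0.39 for Adgre1 (adjusted p = 0.653) and -1.81 ± 0.83 for Trem2 (adjusted p = 0.598). Trem2 had at most 8 counts in any healthy library.

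**Figure D3:**
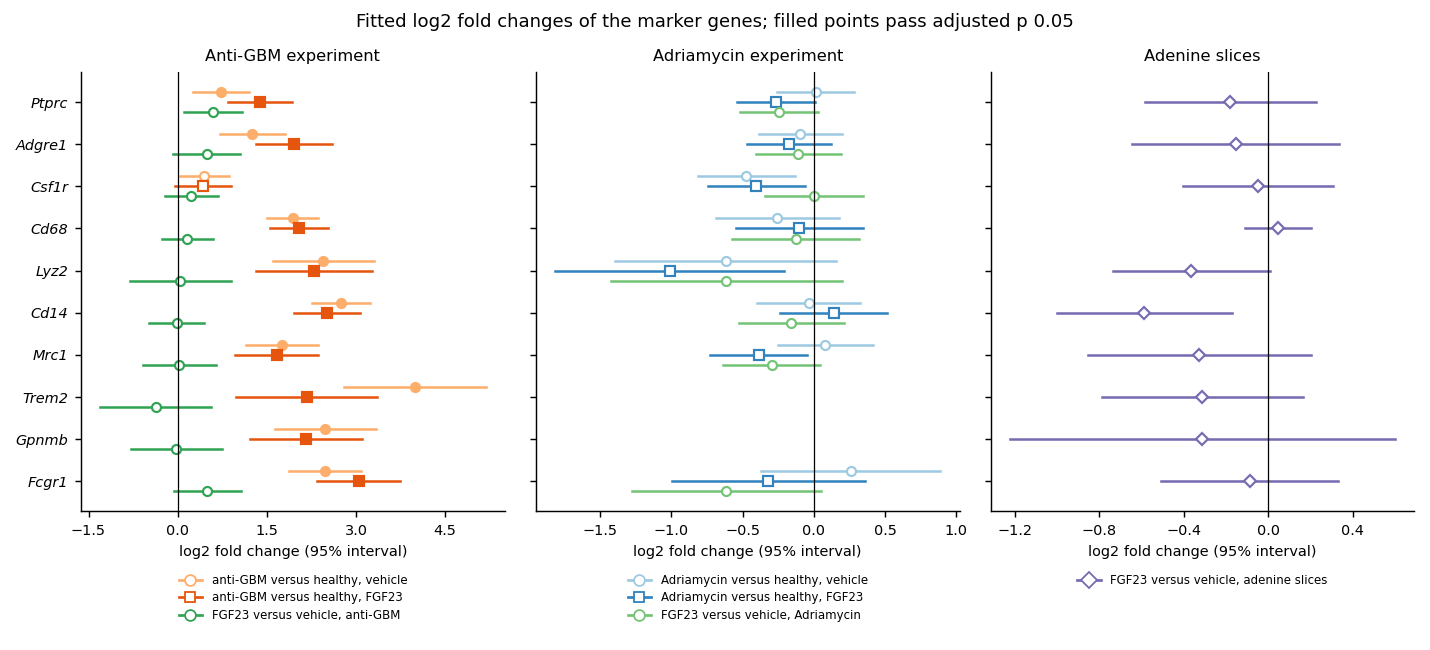
Fitted log2 fold changes of the members with 95% intervals, by experiment (the horizontal axes have different scales). Filled symbols pass an adjusted p of 0.05 and open ones do not; Trem2 and Gpnmb were not tested in the Adriamycin experiment. Filled symbols occur in the anti-GBM experiment alone, in its 2 comparisons of disease with health.

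Other marker lists were counted in the same comparison. Of 14 further genes of mononuclear phagocytes, 13 were called higher in disease under vehicle (median log2 fold change 1.49), with the smallest p for Fcer1g (1.82 ± 0.17), the signalling chain of Fc receptors, Spi1 (1.43 ± 0.14), which encodes PU.1, and the lysosomal protease Ctss (2.01 ± 0.20). Of 10 genes typical of resident macrophages, 4 were called higher (median 1.56), with the smallest p for the complement genes C1qb (2.10 ± 0.17), C1qa (1.98 ± 0.17) and C1qc (1.97 ± 0.21). In the list of lysosomal and lipid-handling macrophage genes, 9 of 12 were called higher and 1 lower, beside 3076 and 3228 of all 15859 genes tested. Higher ones included Spp1, encoding osteopontin (3.60 ± 0.37), and Lgals3, encoding galectin-3 (2.21 ± 0.18). Kidney epithelium also expresses several genes of that list, whose summed level in healthy kidneys was already 4704 to 5043 CPM. Of the monocyte genes, 4 of 6 were called higher, Ccr2, the receptor that draws monocytes into tissue, among them (1.46 ± 0.31, adjusted p = 0.00243).

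Of 9 neutrophil genes, 5 passed the filter on low counts, and all 5 were called higher (median 3.29). S100a8 was at 4.39 ± 0.62 and S100a9 at 3.69 ± 0.53. The summed level of the list was 1.24 to 2.45 CPM in health and 9.72 to 19.8 CPM in disease. The neutrophil gene Mpo was at 0 in both groups. At such levels in health, a gene could pass the filter through the diseased mice alone, so that 5 of 5 carries little weight. Lyz2 is also a neutrophil gene, and the part of neutrophils in its rise was not tested. Among genes of lymphoid and dendritic cells, 1 of 7 dendritic cell genes, 2 of 8 T cell genes and 0 of 2 NK cell genes were called higher, beside the 19.4% of all genes. All 5 genes of injured tubule were called higher (median 6.75), Havcr1, which encodes KIM-1, by 7.18 ± 0.55. Of 5 proximal tubule genes, 2 were called lower, beside 3228 of all 15859 genes tested. The part of injured tubular cells in the rise of Cd14 was not tested. Of 12 partners of the members (ligands of Csf1r, adaptors, other Fc receptors and Toll-like receptors), 9 were called higher (median 1.35), with Fcgr3 (2.54 ± 0.20) and Tlr2 (2.33 ± 0.21) having the smallest p.

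Under FGF23 in anti-GBM disease, no gene of any of these lists was called, and the median log2 fold change over all genes was -0.002. Log2 fold changes were positive for 13 of 14 mononuclear phagocyte genes (median 0.33), with Cx3cr1, the fractalkine receptor, having the smallest p (0.96 ± 0.22, adjusted p = 0.138), for 5 of 6 monocyte genes (median 0.31), for all 7 dendritic cell genes (median 0.65) and for all 8 T cell genes (median 0.54). They were positive for 3 of 10 genes typical of resident macrophages (median -0.54). They were negative for all 12 lysosomal and lipid-handling genes (median -0.25). The 5 of 9 neutrophil genes that were tested also had negative values (median -1.37), with S100a9 at -1.37 ± 0.48 (adjusted p = 0.330). Those 5 could pass the filter through the anti-GBM mice, so that their shared sign carries little weight. The summed neutrophil level was 6.49 to 9.71 CPM in the 3 mice on FGF23 and 9.72 to 19.8 CPM in the vehicle mice, so that the ranges nearly touched. The summed T cell level was 18.3 to 19.1 CPM, above the 8.06 to 17.5 CPM of the vehicle mice. Sums of the other lists given here overlapped, such as monocyte (68.3 to 92.8 against 47.6 to 71.5 CPM) and lysosomal and lipid-handling genes (8533 to 12101 against 7833 to 20439 CPM). Of all single genes, 5.11% separated these groups upward and 4.1% downward. None of these differences was tested as a list, and genes of the same list share libraries and are not separate observations. The list values include the low vehicle mouse NTS8 and are not given without it.

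**Figure D4:**
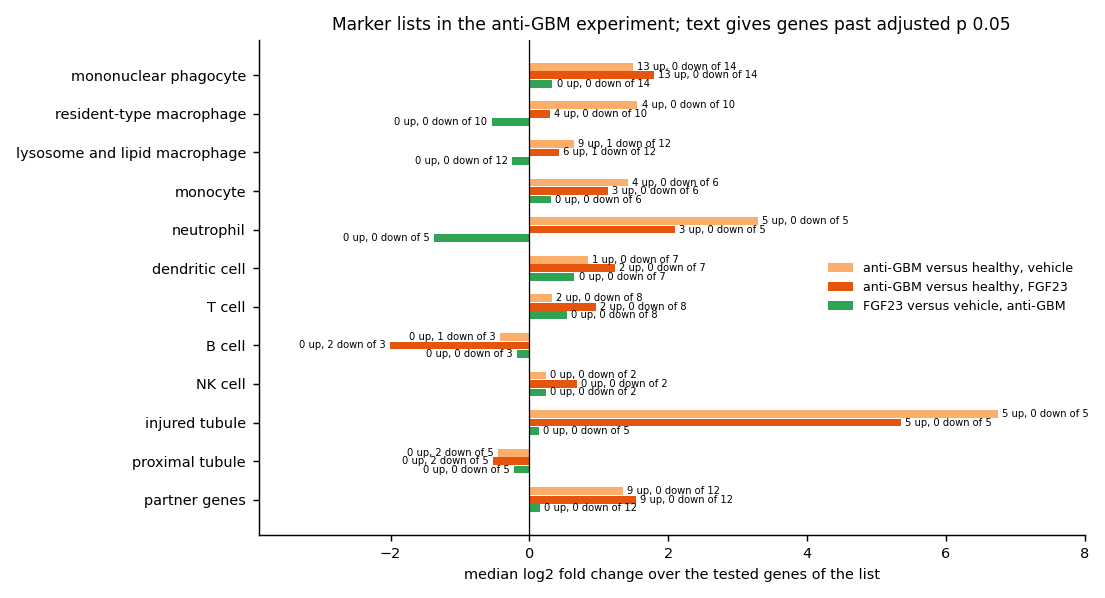
Median log2 fold change of each marker list in the anti-GBM experiment, with the number of genes called higher and lower of those tested written at each bar. In disease under vehicle, mononuclear phagocyte, neutrophil and injured tubule lists hold the most calls for the number of genes tested (5 of the 9 neutrophil genes were tested). For FGF23 against vehicle in disease, no gene of any list is called, and the medians lie between -1.37 and 0.65.

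In contrast to anti-GBM disease, Adriamycin nephropathy raised none of the 8 tested markers under vehicle. No member was called by edgeR or by DESeq2, beside 0.331% of all genes (53 of 16020), and 1 had an unadjusted p below 0.05, beside 8.27%. That member was Csf1r, which was lower in disease, at 86.4, 116, 80.8 and 67.7 CPM against 143, 106, 127 and 114 CPM in healthy mice, overlapping in 1 mouse (-0.48 ± 0.16, 95% interval -0.82 to -0.14, adjusted p = 0.355). Ptprc differed little, with 12.2, 9.17, 10.2 and 10.5 CPM in health and 9.78, 11.3, 9.81 and 11.6 CPM in disease. The 95% interval of its log2 fold change (-0.26 to 0.28) included 0. It overlapped the interval of Ptprc in anti-GBM disease under vehicle, whose lower end was 0.26 around an estimate of 0.73. Adgre1 was at 5.20, 4.74, 4.56 and 4.15 CPM and 3.93, 5.33, 4.30 and 3.88 CPM (-0.39 to 0.20), Cd68 at 4.43, 3.85, 3.77 and 4.44 CPM and 2.99, 3.99, 4.30 and 2.44 CPM (-0.69 to 0.18). The difference between the models was not tested, and strain, sex, disease and length of treatment cannot be told apart in it.

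Lyz2 had the lowest log2 fold change in this comparison, at 29.6, 38.7, 19.2 and 18.1 CPM in health and 13.9, 25.6, 22.5 and 6.14 CPM in disease, with mouse Ad8 the lowest (-0.62 ± 0.36, adjusted p = 0.706, and -0.35 without Ad8). Cd14 (-0.40 to 0.33), Mrc1 (-0.25 to 0.42) and Fcgr1 (-0.37 to 0.89) had 95% intervals that included 0. Trem2 had 22, 9, 2 and 6 counts in the 4 healthy and 3, 4, 4 and 0 counts in the 4 diseased kidneys. Gpnmb had 8, 8, 5 and 3 and 3, 12, 7 and 4 counts. No gene of any marker list was called in this comparison. The 5 injured tubule genes, all tested, had a median log2 fold change of -0.06, and 2 of them were positive. Their summed level, which weighs genes by abundance, was 99.0 to 185 CPM in healthy and 52.0 to 111 CPM in diseased kidneys.

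**Figure D5:**
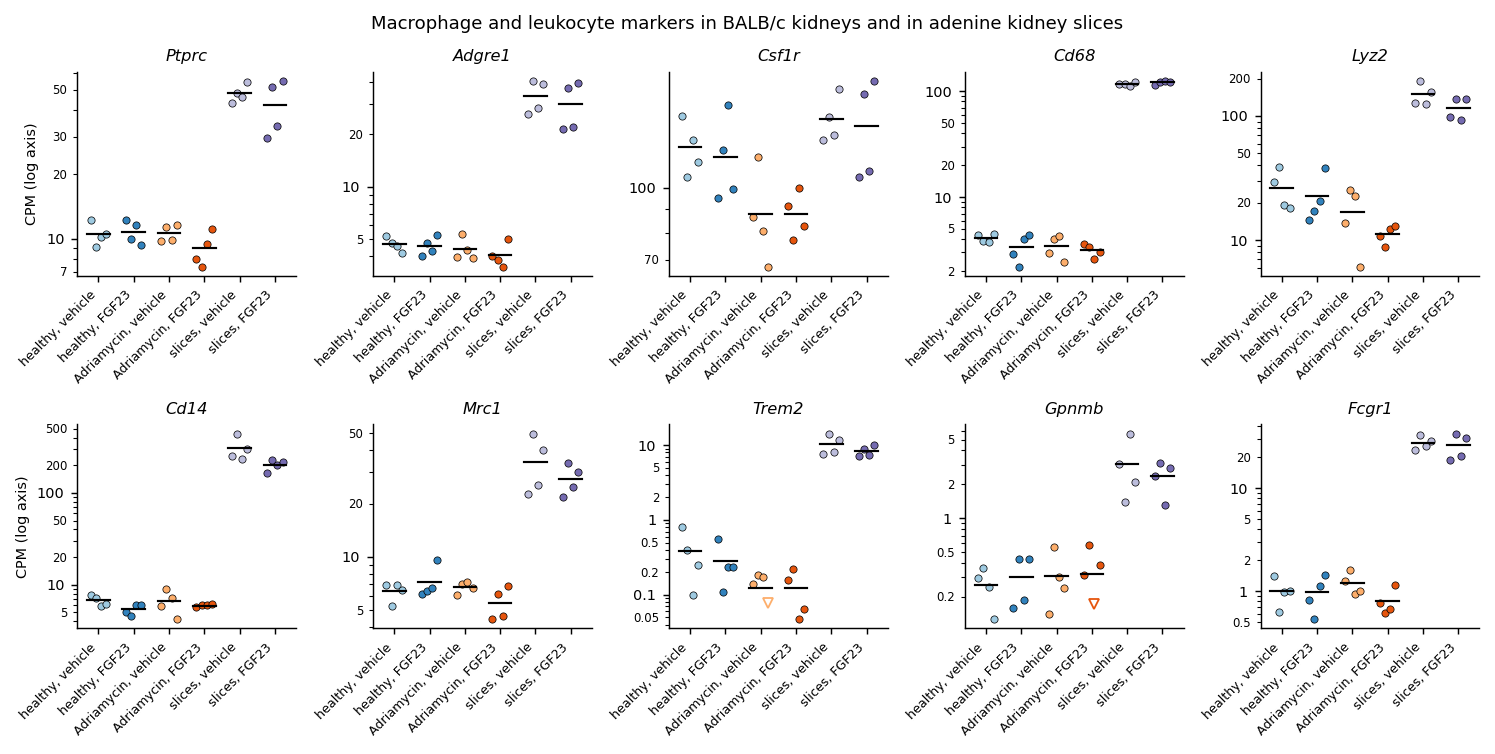
Levels of the 10 members in the BALB/c kidneys of the Adriamycin experiment and in the adenine slices (CPM, log axis, a separate scale per gene; TMM scaling within each experiment). Points are libraries, lines are group means, and open triangles mark libraries with 0 counts. The 4 groups of BALB/c kidneys overlap for nearly every member, and the slices lie above all of them for every member except Csf1r.

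Under FGF23, the comparison of Adriamycin with health again gave no call among 8 members by edgeR or by DESeq2 (0.699% of all genes were called). An unadjusted p below 0.05 was found for 3 members and 12.7% of all genes, and 7 of the 8 log2 fold changes were negative. Lyz2 was at 38, 14.5, 17.3 and 20.7 CPM in healthy mice on FGF23 and at 10.7, 8.88, 12.4 and 13 CPM in diseased mice on FGF23, without overlap (-1.01 ± 0.38, adjusted p = 0.275), which 2.97% of all genes showed downward. Without healthy mouse Ad9, it was -0.64. Csf1r (-0.40 ± 0.16), Mrc1 (-0.39 ± 0.16) and Ptprc (-0.27 ± 0.13) were lower with adjusted p-values (edgeR) of 0.303, 0.320 and 0.413. Of the marker lists, 1 of 12 lysosomal and lipid-handling genes was called higher in this comparison, Apoe, which encodes apolipoprotein E (0.57 ± 0.12, adjusted p = 0.0416), and no gene of any other list.

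In Adriamycin kidneys, 1 injection of FGF23 changed no member by the test. None of the 8 members was called by edgeR or by DESeq2, 0 had an unadjusted p below 0.05 (0.0375% of all genes were called and 5.69% had such a p), and all 8 log2 fold changes were negative, from -0.62 to -0.00. Ptprc was at 8.04, 7.39, 9.47 and 11.1 CPM under FGF23 (95% interval of the log2 fold change -0.52 to 0.03) and Adgre1 at 4.00, 3.78, 3.47 and 5.02 CPM (-0.41 to 0.19). Fcgr1 was at 0.778, 0.616, 0.666 and 1.16 CPM under FGF23 and at 1.26, 1.61, 0.947 and 1.01 CPM under vehicle (-0.62 ± 0.31, adjusted p = 0.887). In healthy BALB/c mice, no member was called (0% of all genes), with log2 fold changes from -0.33 for Cd14 to 0.17 for Mrc1, and in the interaction of FGF23 with Adriamycin disease none was called either (0% of all genes), with adjusted p-values of 0.967 or more. In both of these comparisons edgeR and DESeq2 gave 0 calls and 0 members had an unadjusted p below 0.05, beside 6.69% and 5.11% of all genes. Of the 14 further mononuclear phagocyte genes, 12 had negative values with FGF23 in Adriamycin disease (median -0.37, none called), among them Cx3cr1 (-0.67 ± 0.16, adjusted p = 0.292).

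In PCKS from adenine kidneys, most markers were abundant. Means under vehicle were 48.2 ± 4.65 CPM (SD, n = 4) for Ptprc, 33.4 ± 7.13 for Adgre1, 117 ± 4.17 for Cd68, 307 ± 94.9 for Cd14, 10.4 ± 3.14 for Trem2 and 27.6 ± 3.94 for Fcgr1. In the anti-GBM mice on vehicle the same genes were at 23.7 ± 7.97, 18.4 ± 7.65, 15.8 ± 1.79, 25.5 ± 6.79, 2.21 ± 1.27 and 8.30 ± 3.08 CPM. The other 4 members were at 141 ± 16.6 CPM (Csf1r), 149.6 ± 30.4 (Lyz2), 34.5 ± 12.7 (Mrc1) and 3.06 ± 1.85 (Gpnmb) in the slices and at 84.2 ± 17.5, 110.4 ± 70.2, 20.4 ± 8.03 and 2.75 ± 0.444 CPM in the anti-GBM mice. Strain, disease, culture and scaling differ, so these are values side by side. Proximal tubule genes summed to 332 to 432 CPM in the vehicle slices, beside 7260 to 11949 CPM in the anti-GBM kidneys on vehicle, and genes of injured tubule to 1513 to 2566 CPM, beside 362 to 752 CPM. Their part in the levels of the members was not tested.

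FGF23 changed no member in PCKS by the test: 0 of 10 were called by edgeR or by DESeq2, beside 0% of all genes, and 1 had an unadjusted p below 0.05, beside 4.89%. Of the 10 log2 fold changes, 9 were negative. Cd14 was at 250.3, 443, 235 and 298 CPM under vehicle and at 167, 229, 201 and 220.0 CPM under FGF23, without overlap, as 1.72% of all genes downward (-0.59 ± 0.19, adjusted p = 0.849). Its value was -0.50 without FGF23 slice 1 and -0.35 without the high vehicle slice 2. Lyz2 was at 127, 190.3, 126 and 155 CPM and 98.2, 137, 92.6 and 137 CPM (-0.36 ± 0.17, adjusted p = 0.849). Cd68 had the narrowest interval of all members (-0.11 to 0.20), at 118, 117, 112 and 122 CPM under vehicle and 113, 123, 124 and 123 CPM under FGF23. Ptprc was at 43.4, 48.4, 46.5 and 54.4 CPM and 29.7, 51.7, 33.8 and 54.8 CPM (-0.58 to 0.22). Slices 1 and 3 under FGF23 were both below all vehicle slices for Ptprc, Adgre1, Csf1r and Fcgr1, whereas slices 2 and 4 were near the highest ones. Without FGF23 slice 1, the log2 fold changes of Ptprc and Adgre1 were -0.04 and -0.02, and those of Csf1r and Fcgr1 turned to 0.06 and 0.04. Proximal tubule genes summed to 406 to 994 CPM in the FGF23 slices, and their part in these differences was not tested. No gene of any marker list was called in PCKS either.

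Finally, it was asked which members vary together from kidney to kidney once differences between groups are removed. Over the 38 libraries, with log2 CPM centred on the group mean, each of the 8 members tested in all experiments was correlated with the mean of the other 7. Pearson's r was 0.83 for Adgre1, 0.79 for Fcgr1, 0.70 for Lyz2, 0.63 for Mrc1, 0.59 for Ptprc, 0.46 for Cd68, 0.33 for Csf1r and 0.24 for Cd14. Cd14, which had the smallest p in anti-GBM disease, was thus the least coupled to the others within groups. Among 13966 other genes tested in all 3 experiments, the 8 most like the members' mean were C1qa (0.87), C1qc (0.86), Ms4a7 (0.86), Laptm5 (0.84), Unc93b1 (0.82), Ctss (0.82), Mpeg1 (0.82) and Dock2 (0.82). C1qa and C1qc encode chains of complement C1q, which kidney macrophages secrete, Ctss and Laptm5 encode lysosomal proteins of leukocytes, and Mpeg1 encodes a pore-forming protein of macrophages. These values share libraries, depth and the members' mean, and they describe likeness of pattern only.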

How the data were processed

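RNA was measured in 38 libraries made with a stranded, ligation-based mRNA kit. The authors deposited raw counts of reads per gene for each experiment, made with bcl2fastq 2.20.0, FastQC 0.11.8, STAR 2.7.9a and featureCounts 1.5.1 per the labels (GRCm38 annotation). The strand setting of the counting is not given in the sources used here. Of 55487 genes, 346 had no symbol. Count columns of mice are named by mouse only and were assigned to the labels' groups through the study's supplementary table headers, which list these column names. Levels (CPM) are counts scaled to library size with TMM factors within an experiment.

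Each experiment was fitted with edgeR 4.0.16 in R 4.3.3 (quasi-likelihood F test, all groups in 1 fit, filterByExpr with a minimum count of 10), with Benjamini-Hochberg adjustment over all genes tested in a comparison and a cutoff of 0.05, for 11 comparisons. DESeq2 1.42.0, RLE scaling, no filter, fits of the compared groups alone, a fold cutoff and each library left out were alternatives. The code was tested on simulated data. Named were all 10 members, at most 3 genes with the smallest p of each marker list, and the 8 genes most like the members. Members and lists were chosen with earlier results of these data known. Replicates are separate mice or cultures per the labels, and intervals of counts cover counting error only. The results of the B cell list are not reported in the text here.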

Additional observations from a re-analysis of the deposited data

Results flagged for a closer look

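Of 80 groups of 4 libraries examined, 3 held a library far from the other 3 by Dixon's ratio (gap to the nearest library over the range, above its critical value for 4 libraries). Chance gives this in about 1 in 20 groups. In the FGF23 slices, Cd68 was at 113 CPM in slice 1, with the nearest slice at 123 CPM (ratio 0.928). Among the healthy vehicle mice of the anti-GBM experiment, Lyz2 was at 28.7 CPM in NTS3, with the nearest mouse at 18.1 CPM (ratio 0.892). Among the healthy FGF23 mice of the Adriamycin experiment, Mrc1 was at 9.58 CPM in Ad9, with the nearest mouse at 6.64 CPM (ratio 0.865). The causes were not tested.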

How the results depend on the processing

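The 220 alternative values covered the numbers of members called and the ratios to Ptprc in anti-GBM disease under vehicle. Numbers of members called stayed within 1.5 times those reported, including DESeq2, RLE scaling, no count filter and each library left out. Comparisons without a called member stayed without one. With a prior count of 2, each difference in ratio moved by less than the SD of the healthy mice. For the member fold changes printed in the text, 732 alternative values kept their direction and side of the cutoff. Csf1r passed the cutoff in 5 others, all in anti-GBM disease, as given with the result, and the sign turned in 7. For FGF23 against vehicle in anti-GBM disease, leaving out 1 library moved the log2 fold change of Trem2 between -0.64 (without NTS8) and 0.018 (without NTS5). In slices, Csf1r ranged from -0.17 (without FGF23 slice 4) to 0.056 (without FGF23 slice 1), and was at 0.044 without FGF23 slice 3 and 0.035 without vehicle slice 4. Fcgr1 ranged from -0.24 (without FGF23 slice 2) to 0.039 (without FGF23 slice 1), and was at 0.0069 without vehicle slice 2 and 0.0078 without FGF23 slice 3. Counting also the values given as ranges, leaving out 1 library gave both signs in 33 of 100 pairs of member and comparison, none of them called, 6 of them among the 10 members for FGF23 in anti-GBM disease. The cause was not tested.

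Counts over all genes depended more on the method. For FGF23 in anti-GBM disease, edgeR called 37 genes higher and 1 lower, DESeq2 117 and 40, the fit of the compared groups alone 12 and 0, and the fit without a count filter 56 and 4. For Adriamycin under vehicle the numbers were 19 and 34 with edgeR and 63 and 84 with DESeq2.

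With the slice number as a replicate block, 0 of 10 members were called by edgeR. Unadjusted p-values in that fit were below 0.05 for Cd14 (0.0021, adjusted p = 0.705), Lyz2 (0.0036, adjusted p = 0.717) and Mrc1 (0.0496, adjusted p = 0.827). Slices of the same number correlated at r = 0.107, 0.105, -0.105 and 0.112, and vehicle slice 3 correlated best with FGF23 slice 1 (0.124). The numbers were not taken as pairs in the main test, but these values cannot decide whether slices of the same number share a mouse. In the mouse experiments the groups were different animals, and no pairing of them is described. Low counts of Trem2 and Gpnmb, and 3 or 4 libraries per group, limit the precision.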
